A study of Homo sapiens with 192 samples.

Results

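Subtelomeric features of the autosomes were the open chromatin features called within 3 Mb of a chromosome end. A feature was a member when it started below 3000000 on chr1 to chr22, or ended within 3000000 bp of the hg38 chromosome end. Chromosome 1 below 1 Mb and the short-arm sides of chromosomes 13, 14, 15, 21 and 22 were left out, which removed 13 features. Of the 80971 features of the series, 2793 were members, with 1308 on the short-arm side and 1485 on the long-arm side of 39 ends. They were compared with the 74089 features farther inside the same chromosomes. HAP1, the near-haploid human line derived from a chronic myeloid leukaemia, was profiled by plate-based snATAC-seq, in which Tn5 transposase tags open chromatin in nuclei that are then sorted singly into wells. There were 96 cells on each of 2 plates, and all were HAP1 without a named genotype change. CASB-labeled and unlabeled nuclei were mixed before sorting and the label of a cell is not known here, so each plate was a mixed sample of n = 1 and no test was made. Cells with more than 300 peaks passed, 83 on plate 1 and 79 on plate 2. HAP1 carries the Philadelphia translocation, which joins the ends of 9q and 22q to the partner chromosome, whereas distances here follow the reference.

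A human chromosome ends in a tandem telomere repeat, followed inward by duplicated subtelomeric sequence and then by unique sequence, which at many ends is rich in G and C and in genes. ATAC signal is usually strongest at promoters of active genes. RNA polymerase III genes, such as those for tRNAs, carry their promoter inside the gene and are also open when active. Genes next to telomeres are known for position effects, and heterochromatin next to telomeres has been studied for its spread inward.

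On each plate, cells numbered 73 to 84 had many peaks in common with cells 37 to 48 and with cells 85 to 96 of that plate, so these 36 wells are not independent of each other. Values outside them rest on 48 passing cells of plate 1 and 43 of plate 2, and are given beside the main results. Depth per passing cell, as read pairs counted in features, had a median of 2029 on plate 1 (lowest 345, highest 12449). On plate 2 the median depth was 2162 (lowest 361, highest 15351). All intervals are 95% intervals of counting error, because nothing measures the spread between cultures.

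The member seen in the most cells was at the end of 1q, in a stretch between GENCODE genes. It was the feature at chr1:248873812-248874812, 81610 bp from the end, and it was open in 54 passing cells (33.3%, interval 26.1 to 41.2%). RefSeq places TRL-CAA4-1, a tRNA gene for leucine, inside it, within the span of its model of PGBD2. The sequence of this gene is shown because no GENCODE gene marks the feature. It was read on the plus strand of hg38, at chr1:248873835-248873980. Capitals mark the tRNA gene, and lower case its flanks of 20 bases.
TRL-CAA4-1: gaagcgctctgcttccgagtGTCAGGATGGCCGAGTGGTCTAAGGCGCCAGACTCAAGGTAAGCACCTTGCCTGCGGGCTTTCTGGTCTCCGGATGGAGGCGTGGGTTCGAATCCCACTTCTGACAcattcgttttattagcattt
The gene holds the letters GGTTCGANNCC, the form of the internal B box searched for here on both strands. Of the 2793 members, 16 held these letters (0.573%, interval 0.328 to 0.929%), against 0.408% of features inside and 0.412% of all features.

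The leading promoter peak among the members was that of ZNF672, a zinc finger gene, in 53 passing cells. That of TRIM58, a ubiquitin ligase gene known from red cell maturation, was open in 42. The bases before their RefSeq starts are shown because both peaks cover them. For ZNF672 they are chr1:248838074-248838209 and for TRIM58 chr1:247857037-247857186, on the plus strand of GRCh38.p14 and free of annotated exons. Capitals mark GGGCGG or its reverse complement, the core of a GC box.
ZNF672: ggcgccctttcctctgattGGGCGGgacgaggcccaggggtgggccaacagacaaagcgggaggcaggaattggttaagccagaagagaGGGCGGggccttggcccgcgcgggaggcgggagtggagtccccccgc
TRIM58: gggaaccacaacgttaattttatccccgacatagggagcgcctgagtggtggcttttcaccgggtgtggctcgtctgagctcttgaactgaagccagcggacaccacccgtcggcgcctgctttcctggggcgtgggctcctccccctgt
The stretch before ZNF672 held 2 GC boxes and that before TRIM58 held 0, whereas the whole peaks held 3 and 4. GGGCGG on either strand was in 48.05% of members and in 24.9% of features inside. It was also in 36.8% of the 150 bases before all 35116 RefSeq starts. Of the 7 promoter peaks among the 10 members seen in most cells, 4 matched a RefSeq promoter by symbol.

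The members were sparser and opened in fewer cells than features inside, although their sequence held more genes. There were 24.45 features per Mb of known sequence at the ends and 28.05 inside, a ratio of 0.872 (interval 0.839 to 0.905). Counting only features seen in at least 10 of all cells, the ratio was 0.527. With ends of 1 Mb and all features it was 0.963, and its interval of 0.903 to 1.03 includes 1. Read pairs in features came to 126.3 per Mb at the ends and 166.2 per Mb inside, a ratio of 0.760 (interval 0.747 to 0.773). The same ratio was 0.747 on plate 1 and 0.773 on plate 2. The ends held 4.145% of the known autosomal sequence, 3.63% of the autosomal features and 3.18% of the autosomal read pairs (interval 3.13 to 3.23%). That share of read pairs was 3.13% on plate 1 and 3.24% on plate 2, both below the share of features. A member was seen in a mean of 4.19 passing cells and a feature inside in 4.92, a ratio of 0.851 (interval 0.836 to 0.867). The ratio was 0.846 on plate 1, 0.857 on plate 2 and 0.805 outside the wells that share peaks. The median was 3 cells in both groups, while it was 5 against 7 for features with a transcription start and 2 against 3 for those without. Of the members, 6.91% (interval 5.997 to 7.92%) were seen in at least 10 passing cells. The background over all 80971 features was 11.4%, and over features inside it was 11.6%. Features seen in exactly 1 of all cells made up 8.59% of the members and 4.74% of the features inside.

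Features were open in the fewest cells not at the very ends but 0.5 to 3 Mb from them, whereas protein-coding genes thinned out steadily from 0.5 Mb inward to 3 Mb. Protein-coding genes numbered 16.1 per Mb in the outermost 0.5 Mb, 18.5 between 0.5 and 1 Mb and 8.73 between 2.5 and 3 Mb. Between 10 and 20 Mb from an end there were 7.77 per Mb. Features numbered 27.6 per Mb in the outermost 0.5 Mb, 22.1 between 2.5 and 3 Mb and 28.96 between 10 and 20 Mb. Read pairs in features followed the same course, with 167.2, 103.4 and 165.7 per Mb. Mean passing cells per feature were 4.84 in the outermost 0.5 Mb and 3.77 between 2.5 and 3 Mb, and reached 4.73 between 10 and 20 Mb. Without the end of 1q, the outermost 0.5 Mb had 4.53 cells per feature, still above the other bands within 3 Mb. On plate 1 the outermost band had 2.525 cells per feature and the innermost band at the ends 1.89, and on plate 2 these were 2.32 and 1.88.

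**Figure D1:**
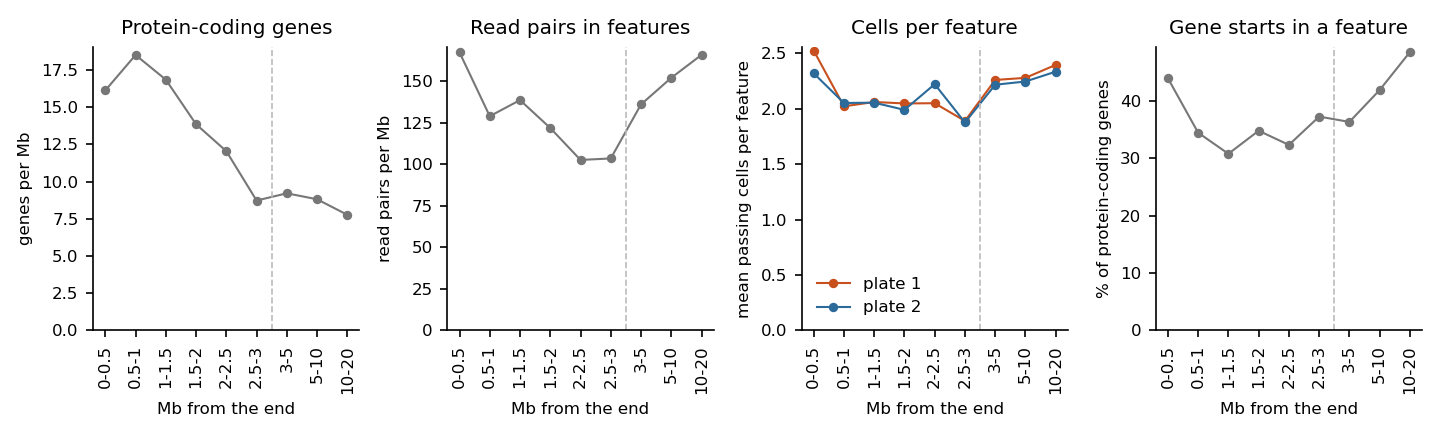
Protein-coding genes per Mb, read pairs in features per Mb, mean passing cells per feature on each plate, and the share of protein-coding genes with a start in a feature, against bands of distance from the chromosome end in Mb. The dashed line marks 3 Mb. Genes number 16.1 per Mb in the outermost band, 18.5 between 0.5 and 1 Mb and 7.77 between 10 and 20 Mb. Read pairs per Mb are lowest, at 102.5, between 2 and 2.5 Mb.

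Promoter peaks were a larger part of the members than of features inside, and on average they were open in fewer cells. A promoter peak, a feature that contains the start of any GENCODE transcript, was 27.75% of the members (775 of 2793, interval 26.1 to 29.4%) and 16.97% of features inside. Introns held 35.3% of members against 42.97% inside, and sequence between genes 24.45% against 31.3%. Promoter peaks at the ends were seen in a mean of 6.25 passing cells and those inside in 8.56, a ratio of 0.730 (interval 0.709 to 0.751). On plate 1 the means were 3.06 and 4.25, and on plate 2 they were 3.19 and 4.31. Outside the wells that share peaks the ratio was 0.676. Of the promoter peaks at the ends, 16% were seen in at least 10 cells, against 31.7% of those inside. Features without a start were seen in 3.396 cells at the ends and 4.18 inside, a ratio of 0.813 (interval 0.794 to 0.833), and the ratio was 0.816 on plate 1 and 0.810 on plate 2. Promoter peaks of lncRNA genes alone, 105 at the ends, had a mean of 6.09 cells against 6.67 inside. Their ratio was 0.913 over both plates (interval 0.841 to 0.989), 0.830 on plate 1 and 0.995 on plate 2, and the plate 2 interval of 0.890 to 1.11 includes 1.

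The members were rich in G and C, and among features of like base composition they were open in fewer cells in most classes of GC content. Median GC content was 51.95% in members and 41.2% inside. It was 65.9% in promoter peaks at the ends and 59.8% in those inside. Members with over 50% GC and an observed over expected CpG ratio above 0.6, as in a CpG island, made up 24.6%, against 13.9% inside. Among features with 60.9 to 84.8% GC, promoter peaks at the ends were seen in 6.37 cells (555 peaks) and those inside in 9.33. From 52.75 to 60.9% GC, the means were 7.28 and 9.505. Features without a start had 3.39 cells at the ends and 5.96 inside in the same highest class, a ratio of 0.569. In the lowest class, 20.2 to 33.6% GC, this ratio was 0.9635 (interval 0.860 to 1.08), which includes 1, and among the 3 lowest classes it lay between 0.908 and 1.01. In the next class, 37.7 to 39.5% GC, it was 0.784 (interval 0.7095 to 0.865). Promoter peaks were few at low GC content, and with 8 to 10 peaks at the ends per class their ratio was 0.644 from 37.7 to 39.5% GC, 0.658 from 39.5 to 41.5% and 1.00 from 41.5 to 43.9%. Windows of 100 kb were also compared by GC content. In windows under 38% GC, read pairs per Mb were higher at the ends than inside, with a ratio of 1.09 (interval 1.03 to 1.16). From 38 to 42% GC the ratio was 0.935, from 50 to 54% it was 0.736 and above 54% it was 0.756, so the lower values lay in the windows rich in G and C without a steady order among them. With windows inside weighted to the base composition of the ends, the ratio was 0.910 for features per Mb and 0.835 for read pairs per Mb. Whether sequencing or alignment recovered G- and C-rich DNA evenly was not tested.

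Genes at the ends were close together, and a smaller share of them than inside had an open start. There were 14.3 protein-coding genes per Mb at the ends and 6.61 per Mb inside. A start lay inside a feature for 579 of 1635 protein-coding genes at the ends (35.4%, interval 33.1 to 37.8%) and for 51.96% of the 17468 genes inside. By distance, this share was 43.97% in the outermost 0.5 Mb and between 30.8 and 37.3% in the bands from 0.5 to 3 Mb. It was 36.35% from 3 to 5 Mb, 41.9% from 5 to 10 Mb and 48.5% from 10 to 20 Mb. The low share was therefore not particular to the outer 3 Mb. A start in a feature seen in at least 10 passing cells was found for 6.42% and 21.05% of these genes. With a gene without a feature counted as 0, the mean was 2.40 passing cells per gene at the ends and 5.22 inside, a ratio of 0.460 (interval 0.446 to 0.475). On plate 1 it was 0.462 and on plate 2 it was 0.458. The starts of lncRNA genes lay in a feature for 13.1% of genes at the ends and 17.7% inside.

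The share of genes with an open start was lower at the ends in every class of base composition around the start. In the 1001 bases around starts with 60 to 70% GC, 38.1% of 643 genes at the ends and 62.4% of 5944 genes inside had a feature. At over 70% GC these shares were 37.5% of 589 genes and 59.1% of 1889 genes. At 40 to 50% GC they were 21.05% and 34.4%. At under 40% GC they were 10.0% of 40 genes and 25.1% of 1165 genes, where the intervals of 2.79 to 23.7% and 22.6 to 27.7% overlap. With genes inside weighted to the base composition of starts at the ends, 56.9% of them had a feature, against 35.4% at the ends.

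Genes that all growing cells use were counted beside all protein-coding genes, of which 35.4% had a feature at the ends and 51.96% inside. Families were taken by symbol after the values of single genes had been seen. They were subunits of the cytosolic and mitochondrial ribosome, of NADH dehydrogenase and of RNA polymerases, and genes named for the proteasome, which include the assembly chaperone PSMG3 and the inhibitor PSMF1. Of their 28 genes at the ends, 10 had a start in a feature (35.7%, interval 18.6 to 55.9%), and of 234 inside, 70.1% had one (interval 63.8 to 75.9%). The share at the ends was that of all genes there. Mitochondrial ribosomal proteins stood lowest, with 1 of 8 genes at the ends and 53 of 70 inside. That gene was MRPL36, whose start shares a feature with NDUFS6, a subunit of NADH dehydrogenase, seen in 3 cells of plate 1 and 4 of plate 2. The cytosolic ribosomal genes RPLP2, RPL35A and RPL8 were open in 8, 5 and 4 cells. RPL13, RPS15, RPS2 and RPS21 had no feature at a start. PSMB1, a proteasome subunit, and TBP, the TATA-binding protein, which lie back to back on 6q, had overlapping peaks that were each seen in 13 cells, 7 on plate 1 and 6 on plate 2. In the list of 26 housekeeping genes chosen for the ends, 11 had a feature and 2 of them, this pair, reached 10 cells. P4HB, a protein disulfide isomerase, had 9 cells and RPLP2 had 8, whereas ACTG1 for gamma actin, ATP5F1D, BSG and GNB1 had no feature.

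**Figure D2:**
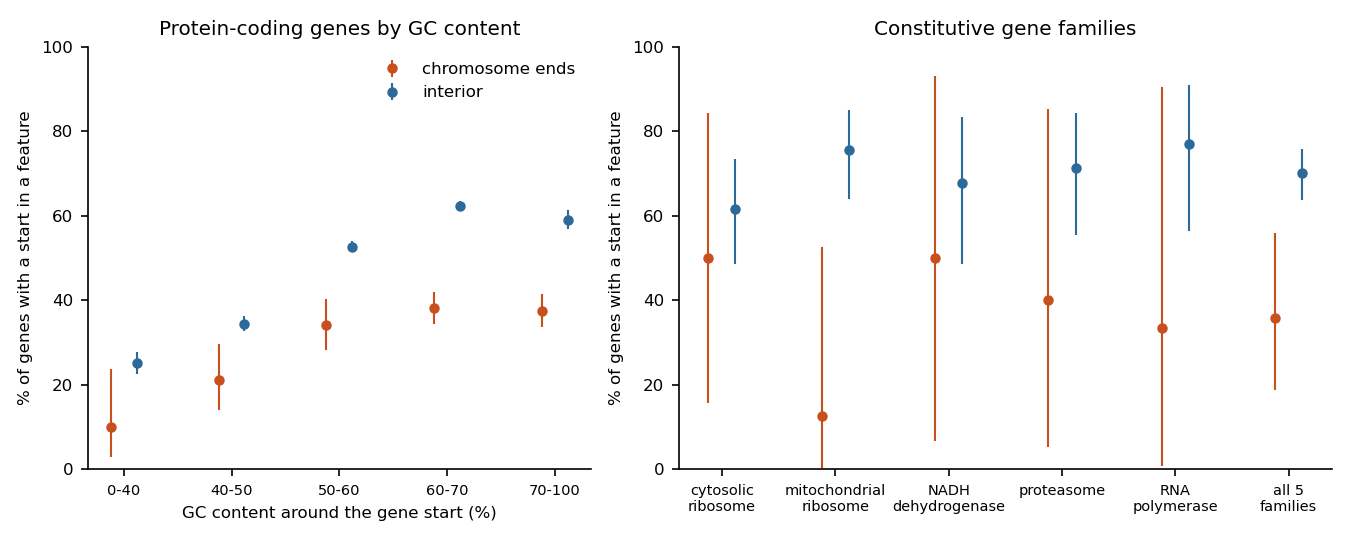
Share of genes with a transcription start inside a feature, in %, at the chromosome ends and inside, by GC content of the 1001 bases around the start (left) and for 5 gene families (right). Points are shares and bars exact 95% intervals of counting error. In the class of 60 to 70% GC the share is 38.1% at the ends and 62.4% inside, and for all 5 families it is 35.7% and 70.1%.

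Other genes known from chromosome ends were counted by list, beside the 35.4% of all protein-coding genes at the ends that had a feature. Several lists lay near that share, so their counts are no result about the lists. None of the 5 genes of the alpha-globin cluster on 16p, HBZ, HBM, HBA2, HBA1 and HBQ1, had a feature. Of 16 neighbours of that cluster, 7 had a feature, led by LUC7L, a splicing factor, with 5 cells, and by POLR3K, RAB11FIP3 and SNRNP25 with 3 each, whereas ARHGDIG, AXIN1, DECR2 and FAM234A had none. In the imprinted domain of 11p15, 5 of 15 genes had one. TSSC4 was open in 14 cells, the maternally expressed lncRNA H19 in 9, SLC22A18 in 9 and NAP1L4 in 6, and there was no feature at ASCL2, CD81, CDKN1C or IGF2. Of 7 interferon-related genes, the regulators IRF7 and IRF4 had features in 7 and 4 cells. The membrane proteins IFITM1, IFITM2, IFITM3 and IFITM5 had none, nor had ISG15. DUX4, ISG15 and TERT, the telomerase catalytic subunit, which are studied for effects of telomere distance, had no feature at a start. Among the 9 genes listed under telomere and repair, only the helicase gene RTEL1 had one, in 4 cells. ARHGDIA, EXD3, FANCA and MAD1L1 were among those without. The list does not hold every repair gene at the ends. RAD52 on 12p and UVSSA on 4p, which are not on it, were open in 13 and 15 cells. Inside the chromosomes all 8 genes of that list had one, beside 51.96% of all protein-coding genes there. The list was chosen with earlier results known, so this contrast is no result about these genes. Of 14 growth and tumour suppressor genes, 4 had a feature, STK11 in 5 cells, NOTCH1 in 4, NSD2 in 3 and SKI in 3, and AKT1, AXIN1, CDKN1C and FGFR3 had none.

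Gene families with use restricted to other tissues, or with many near-identical copies, had few open starts, set beside 35.4% of all protein-coding genes at the ends. Olfactory receptor genes had 3 of 56, with OR11L1 in 7 cells, OR14K1 in 4 and OR14A16 in 3, all at the end of 1q, and inside they had 13 of 356. The immunoglobulin heavy chain locus at 14q had a feature at 6 segments (3.47%), against 0 of the 37 listed segments that lie inside chromosomes. The pseudogene IGHVII-1-1 led with 5 cells, followed by IGHEP1, IGHV3-43 and IGHV3-79 with 3 cells each. Duplicated subtelomeric families had a feature for 4 of 98 genes (4.08%, against 5.405% inside), FRG1 and FRG1-DT in 8 cells, RPL23AP53 in 7 and RPL23AP7 in 5. Reads that align equally well to several places were removed before deposit, so openness of duplicated copies cannot be told apart from loss of their reads.

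Zinc finger genes formed a large list at the ends. At the ends, 56 of these genes had a feature (47.9%), against 242 of 440 inside (55%). Over all protein-coding genes these shares were 35.4% and 51.96%. Their mean was 4.27 passing cells per gene at the ends and 4.68 inside. The leading genes were ZNF672 with 53 cells, ZNF695 with 30, ZNF140 on 12q with 27 and ZNF669 with 26. ZFP2, ZFP28, ZFP41 and ZFP42 had no feature. All 8 zinc finger genes of the 1q end had one, with a mean of 25.9 cells, and 12q followed with 5 of 7 genes and a mean of 10.0 cells. The 8 include ZNF670 and its readthrough with ZNF695, which share a start and a peak of 25 cells. At 19q, where 63 of the genes lie, 27 had a feature but only 1 reached 10 cells, and the mean was 1.73. Without 1q the mean at the ends fell to 2.68 cells.

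The ends differed widely from each other. The number of features per end ran from 23 at 9q upward, with a median of 71. Mean passing cells per feature were below the interior of the same chromosome at 34 of 39 ends, and at 27 of them the interval of the ratio lay below 1. At 2 ends, 1q and 15q, the interval lay above 1. These intervals take all counts as independent, so the numbers of ends are descriptions and no test. The median ratio over ends was 0.806. Promoter peaks were lower at 32 ends and features without a start at 35, and features per Mb were fewer at 26. On plate 1 the ratio was below 1 at 31 ends, on plate 2 at 30 and on both plates at 25, and 3 ends were above 1 on both. At 11 ends the direction differed between the plates. Outside the wells that share peaks it was below 1 at 34 ends.

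**Figure D3:**
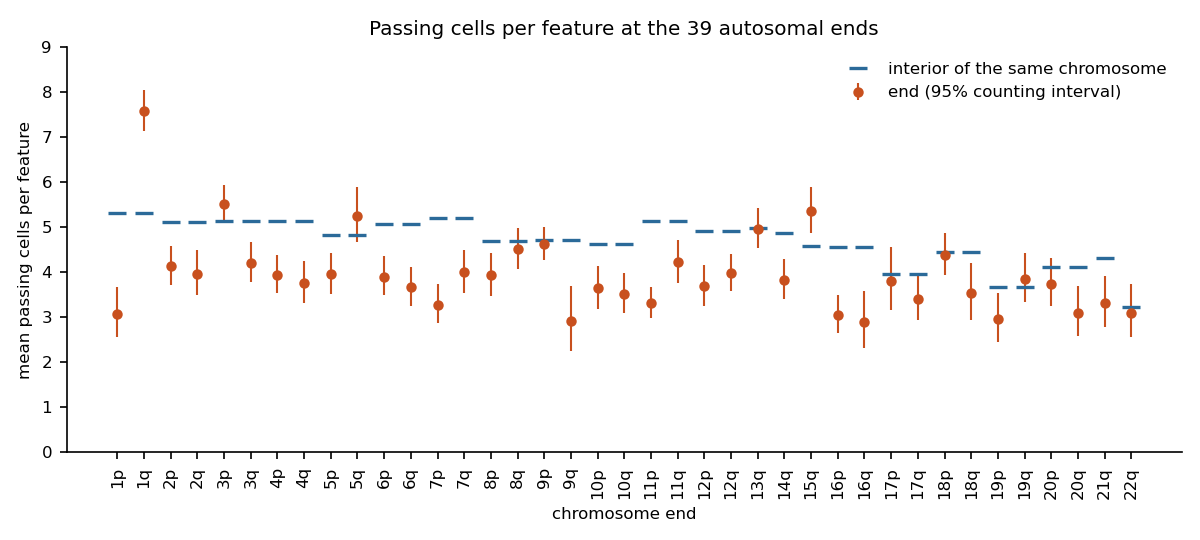
Mean passing cells per feature at each of the 39 autosomal ends (points) and in the interior of the same chromosome (dashes), in genome order. Bars are the exact 95% counting interval of the ratio to the interior, drawn at the level of the end. 34 points lie below their dash, and the end of 1q, at 7.58 cells, lies above all other ends.

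The ends with most features per Mb were 1q (47.8), 9p (45.15) and 3p (43.8), and those with fewest were 9q (7.82), 16q (10.0) and 17p (11.04). By mean passing cells, 1q (7.58), 3p (5.504) and 15q (5.365) were highest and 16q (2.897), 9q (2.91) and 19p (2.95) lowest. The leading features of the last 3 were seen in 8, 7 and 8 cells, at the starts of FBXO31 and MAP1LC3B, of TMEM141 and of ATP8B3. That of 15q was the start shared by LRRC28 and TTC23, in 21 cells, and that of 17p the start of WDR81 and MIR22HG, in 13. The end of 9p was led by SMARCA2, the ATPase BRM of the SWI/SNF remodelling complex, in 34 cells. The sparse ends 9q and 18q differed in their genes. At 9q there were 31.6 protein-coding genes per Mb, with 10 of 93 having a feature, and the median GC content of features was 64.7%. At 18q, with 12.5 features per Mb, there were 4.15 genes per Mb. At the dense end of 3p there was 1.00 gene per Mb and the median GC content was 37.3%. Over the 39 ends, Spearman's rho was -0.55 between median GC content and mean passing cells, -0.37 between genes and features per Mb, and -0.68 between genes per Mb and the share of genes with a feature. These are descriptions across ends that share the same cells, and no test was made.

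The end of 3p held many open features but few promoters. Of its features 3.05% contained a start, and its features without a start had a mean of 5.28 cells against 4.39 in the interior of chromosome 3. Its leading feature, at chr3:1462603-1463603, was seen in 32 cells (14 on plate 1, 18 on plate 2) and lies between genes, 370445 bp from the nearest coding start, that of CNTN6. Another feature between genes, at chr3:458675-459675, was seen in 29 cells. The region holds the neural adhesion genes CHL1, CNTN6 and CNTN4. The start of CNTN4 was open in 25 cells and that of CHL1 in 15, whereas CNTN6 had no feature at a start but features in 24 and 22 cells inside it.

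The end of 1q stood apart from all other ends. It held 5.12% of the members and 9.74% of their read pairs. Its features were seen in a mean of 7.58 cells, against 5.88 in the rest of 1q, a ratio of 1.29 (interval 1.21 to 1.37). The difference lay in promoters. The 31 promoter peaks had a mean of 16.8 cells and those in the rest of 1q had 10.9, a ratio of 1.55 (interval 1.41 to 1.69). Features without a start had 5.02 and 4.83 cells, a ratio of 1.04 (interval 0.954 to 1.13) that includes 1. At the end of 1p the promoter peaks had 3.84 cells, against 7.11 in the rest of 1p. Without 1q, the mean over the remaining 2650 members was 4.01 cells, and promoter peaks had 5.81.

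The open starts of 1q came in blocks. Within 0.5 Mb of the end there were 38 features with a mean of 8.50 cells (4.00 on plate 1 and 4.50 on plate 2) and 884 read pairs per Mb. They included the starts of PGBD2, ZNF672, SH3BP5L and ZNF692 and the leading feature. Between 0.5 and 1 Mb, within the olfactory receptor cluster, the 16 features had a mean of 2.56 cells, none held a start and none reached 10 cells. Between 1.5 and 2 Mb the mean rose to 10.8 cells, with 9 promoter peaks at 19.8 cells each on average, among them ZNF695, ZNF669 and ZNF670. Features between 3 and 5 Mb from the end had 6.09 cells and those between 5 and 10 Mb had 5.88. Promoter peaks between 5 and 10 Mb had a mean of 15.7 cells (19 peaks), and those between 3 and 5 Mb had a mean no lower. Between 10 and 20 Mb the mean of promoter peaks was 10.0 cells. Open promoters of 1q thus reached farther inward than the outer 3 Mb.

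**Figure D4:**
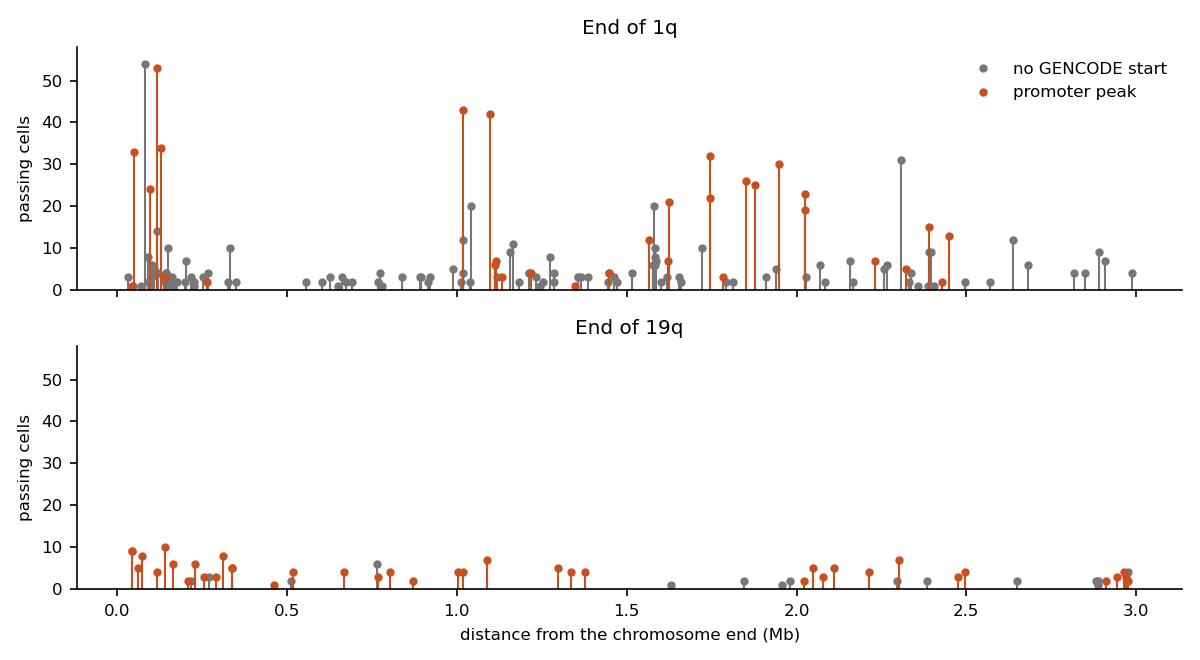
Number of passing cells with each feature at the ends of 1q and 19q, against distance from the chromosome end in Mb, for promoter peaks and for features without a GENCODE start. At 1q single features reach 54 cells within 0.2 Mb of the end, and at 19q, which has 55 features of which 70.9% are promoter peaks, the highest is 10 cells.

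Of the 10 members seen in most passing cells, 8 were at the end of 1q, where CNST took the last place by genome order from a tie with TEDC1 on 14q at 31 cells. The leading feature was seen in 28 cells of plate 1 (33.7%) and 26 of plate 2 (32.9%), and 27 of its cells lay outside the wells that share peaks. It ranked 7 among all autosomal features. ZNF672 was open in 23 cells of plate 1 and 30 of plate 2. The shared start of CLK3P2, a pseudogene of the kinase CLK3, and the lncRNA ENSG00000289367 was open in 20 and 23 cells. TRIM58 was open in 18 and 24 cells, and SH3BP5L, which shares its peak with MIR3124, in 19 and 15. SMARCA2 on 9p was open in 17 cells of each plate. PGBD2, derived from a piggyBac transposon, was open in 9 cells of plate 1 and 24 of plate 2, the widest gap between plates among the members. The lncRNA start ENSG00000290683 was open in 15 and 17 cells, the feature of 3p given above in 14 and 18, and an exon of CNST, a gene for a connexin trafficking protein, in 14 and 17. Apart from PGBD2, the shares of the plates in these 10 members differed by at most 10.3 percentage points, with overlapping intervals. Among the 100 autosomal features seen in most cells, 4 were members. Outside chromosome 1, the members next in order after SMARCA2 and the 3p feature were the start of TEDC1, a centriole gene on 14q, in 31 cells, and the 3p feature in 29. They were followed on 2p by LINC01115 in 28 and TMEM18 in 27.

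Plates differed most, after PGBD2, at 4 members. An intron of LINC02731 on 11q was open in 4.82% of passing cells on plate 1 and 16.5% on plate 2. The start of ZNF670 was open in 20.5% and 10.1%, ZNF672 in 27.7% and 37.97%, and the start of IGSF9B in 1.20% and 11.4%. For PGBD2 the shares were 10.8% (interval up to 19.6%) and 30.4% (interval from 20.5%), which do not overlap. These members were picked as the widest of 2793 differences.

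Features with tRNA genes were followed across all ends because of the leading member, so this list was chosen after its values were seen. Of 26 RefSeq tRNA genes at the ends, 12 lay inside a feature (46.2%, interval 26.6 to 66.6%), against 39.7% of 401 inside the chromosomes (interval 34.8 to 44.6%). The 9 features that held them were seen in a mean of 13.3 passing cells, and those inside in 10.1. Without the leading feature, which prompted the list, the mean of the other 8 was 8.25, below the mean inside. Apart from the leading feature on 1q, TRX-CAT1-8 on 17q was in a feature of 7 cells, and the other 9 genes were in the cluster on 5q. There TRK-CTT2-3 and TRV-CAC1-5 shared a feature in 14 cells with the start of TRIM41, and TRV-AAC1-3 was in 11 cells. The remaining features of the cluster were seen in 5 to 8 cells. Another 8 tRNA genes of that cluster lay in no feature.

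The outermost members lay near the limit of the known sequence, since the reference holds no known bases in the last stretch of these arms. The nearest members lay 10114 bp from the end of 11q, 10554 bp from that of 16p and 10868 bp from that of 9p, followed by 5p at 16922 bp and 2p at 18278 bp. They were seen in 5, 3, 7, 2 and 2 passing cells. The feature on 11q contains the start of LINC02684, and the others lie between genes. At 16 of 39 ends a feature lay within 100 kb, and 55 members did so in all. The median distance of the nearest feature over the ends was 129881 bp.

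Of the 5 nearest members, 3 contain the CTCF consensus, 13 letters that mark binding sites of CTCF, the factor that anchors chromatin loops. The matches of 16p, 9p and 2p are at chr16:10893-10933, chr9:11325-11365 and chr2:18820-18860, shown on the plus strand of hg38 to compare their surroundings, with the match in capitals.
16p match: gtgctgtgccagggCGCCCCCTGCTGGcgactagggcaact
9p match: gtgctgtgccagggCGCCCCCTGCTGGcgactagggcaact
2p match: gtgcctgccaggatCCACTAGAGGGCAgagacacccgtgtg
The 41 bases of 16p and 9p were identical, and these 2 features shared 470 of 982 runs of 20 bases (47.9%), whereas the other pairs among the 5 shared 0. The consensus was in 5 of the 55 members within 100 kb of an end, in 16 of 482 within 500 kb and in 80 of all 2793 (2.86%, interval 2.28 to 3.55%), against 1.64% of features inside. Among features without a start seen in at least 10 cells, 1 of 69 members had a match (interval 0.0367 to 7.81%) and 1.07% of those inside. Among those seen in fewer cells, 3.335% of members and 1.72% inside had one.

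The letters of the telomere repeat were less frequent in members as a whole than inside, though not in those nearest the ends, and tandem copies were rare in both. At least 1 TTAGGG on either strand was in 27.6% of members and 32.2% of features inside. The share was 31.1% of the 482 members within 500 kb of an end, 34.55% of the 55 within 100 kb and 2 of the 5 within 20 kb. Runs of 2 or more copies in tandem were in 3 members (0.107%, interval 0.0222 to 0.314%) and in 14 features inside (0.0189%, interval 0.0103 to 0.0317%), a ratio of 5.68 that rests on few features. A run of 3 was in 1 member and 0 features inside. That member was at 22q, at chr22:49271694-49272694, 1545774 bp from the end in the reference. It was seen in 2 cells of plate 1 and 0 of plate 2. Its opening 130 bases, chr22:49271694-49271823 on the plus strand of hg38, are shown for the run of 3, with the repeat, here as its reverse complement, in capitals.
22q feature: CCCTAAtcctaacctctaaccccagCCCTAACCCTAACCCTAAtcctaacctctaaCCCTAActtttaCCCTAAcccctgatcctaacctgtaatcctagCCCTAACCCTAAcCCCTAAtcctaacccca
The whole feature held 16 copies, 9 of them in these bases, separated by variants of the repeat.

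Single cells differed in how much of their signal lay at the ends. On plate 1 the share of a passing cell's autosomal read pairs at the ends ran from 0.754 to 13.9%, with a median of 2.92%, and on plate 2 from 1.07 to 7.20%, with a median of 2.94%. A cell had peaks in a median of 48 members on plate 1 and 50 on plate 2. The medians were thus alike and the widest values lay on plate 1. Cell 18 of plate 1 had 13.9% of its autosomal read pairs at the ends, and 85.6% of these were at the end of 3q, in 26 of its features. Cell 43 of plate 1 had 29 of 37 such read pairs at 2p, and cell 94 had 29 of 73 at 20p. In these cells 1 end held most or much of the signal at the ends. At least 3% of a cell's autosomal read pairs lay in 1 window of 3 Mb for 4 pairs of cell and end over the 39 ends, and for 41 pairs of cell and window over 862 windows inside, or 0.103 and 0.0476 pairs per window. The cause of such concentration was not tested. The 240 members seen in exactly 1 of all cells came from 85 cells, and 5 cells held 23.3% of them, whereas inside 5 cells held 11.7%. The most in a cell was 17, in cell 90 of plate 2, of which 15 were at 11p, where 20 such members lay in all.

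**Figure D5:**
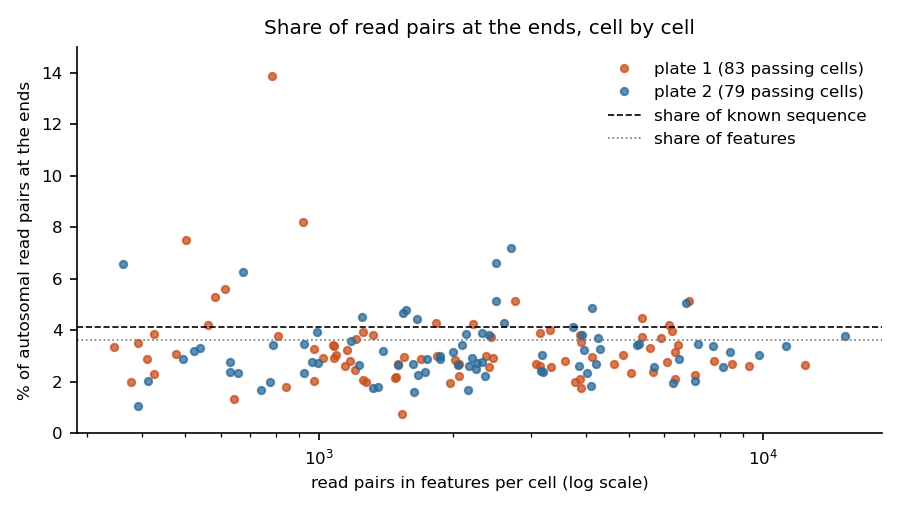
Share of each passing cell's autosomal read pairs that lies at the chromosome ends, in %, against its read pairs in features on a log axis, for plate 1 and plate 2. The cells lie around medians of 2.92% on plate 1 and 2.94% on plate 2, and 1 cell of plate 1 reaches 13.9%.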

How the data were processed

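Chromatin of 192 HAP1 cells was profiled on 2 plates. Per the study's methods, the authors aligned read pairs to hg38 with bowtie2, removed duplicates cell by cell and mitochondrial and poorly mapped reads, and called MACS2 peaks on all cells together. They widened peaks to 1001 bp and counted read pairs with featureCounts 1.6.0 (version per the submitters' processing notes). The deposited counts are raw, and a pair can count in each feature it overlaps. No column was left over. Features overlap in places, so neighbouring members can share reads.

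Cells passed with more than 300 peaks among those seen in more than 1 cell. No doublet caller was run. A feature was seen in a cell with a count of at least 1. Starts came from GENCODE 44, and tRNA genes and promoters from RefSeq on GRCh38.p14. Ratios have exact conditional and shares exact Clopper-Pearson intervals at 95%. Intervals cover counting error only. The calculation was tested on simulated data. Scripts ran in Python 3.11.15 with pandas 2.3.3 and NumPy 2.4.6, intervals came from SciPy 1.17.1 and plots from matplotlib 3.10.9.

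The text names the 10 members seen in most cells, the 3 ends highest and lowest in density and in mean cells, the 5 members nearest an end, the 5 with the widest plate difference, up to 4 genes with and 4 without a feature per list, and members with 3 tandem telomere repeats. Members and lists were chosen with earlier results of these data known. The constitutive families, tRNA genes, motifs of the B box, the account of 3p and of 1q against 19q, and the next members outside chromosome 1 were chosen after their values were seen. Alternatives covered the width of the ends, filters, cells, plates, depth, base composition and definitions of a start. A gene and a sequence are not reported here.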

Additional observations from a re-analysis of the deposited data

How the results depend on the processing

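Of 80 alternative values for 7 results, 34 stayed within the counting interval of the reported value, 46 moved beyond it and 0 reversed; 21 of the 80 were chosen after seeing the data. All ratios stayed below 1 as values, and the cause of a move was not tested. With ends of 1 Mb, features per Mb had a ratio of 0.963 (interval 0.903 to 1.03, which includes 1), mean cells per feature 0.909 and per feature without a start 0.838, while the share of read pairs was 1.18%, of features with a start 34.1% and of genes with a feature 38.7%. With 2 Mb, the first 2 ratios were 0.941 and 0.868, read pairs 2.3% and starts 30.0%. With 5 Mb, the ratio of cells was 0.873 per feature, 0.782 per promoter peak and 0.838 without a start, read pairs were 5.52% and starts 24.8%. The density ratio was 0.837 over features seen in more than 1 cell and 0.527 over those seen in at least 10. The share of read pairs was 3.13% on plate 1, 3.24% on plate 2 and 3.11% in the binarized matrix. Without cells 37 to 48 and 73 to 96 it was 3.05%, and the ratios of cells were 0.805 per feature, 0.676 per promoter peak and 0.756 without a start. Counting read pairs in place of cells gave 0.872 per feature and 0.846 without a start. Against features 3 to 10 Mb from an end, the ratios were 0.928, 0.823 and 0.8955, and that of density 0.916. Weighted to the GC content of the ends they were 0.6865, 0.694 and 0.776, and in 2-point steps of GC 0.690 per feature and 0.772 without a start. Weighted to the chromosomes of the ends they were 0.873 per feature and 0.766 per promoter peak. With a feature centre within 1 kb of a start, 34.4% of members had one, and with protein-coding starts only 22.95%. A feature within 1 kb of the start was found for 42.9% of genes, and one seen in at least 5 cells for 21.1%. Without the 1q end, read pairs were 2.88% and the ratios of cells 0.814, 0.679 and 0.790. Without chromosomes 9 and 22, read pairs were 3.09%. Thinning to 600 read pairs left out 16 cells and gave 0.839 per feature. No paired analysis was possible because the titles give both plates the numbers 1 to 96, each plate is 1 sample and no test was made. Few read pairs per cell limit all counts, so a start without a feature was not shown to be closed.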
